A study of Mus musculus with 2 samples.

Results

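Among the E11.5 cells of mouse inter-limb somites, 166 cells carried transcripts of both Myog, the gene of the muscle differentiation factor myogenin, and Top2a or Mki67, which mark dividing cells. They were chosen by their unique molecular identifiers (UMIs, random tags that let each captured transcript be counted once). A member had at least 5 Myog UMIs, at least 3 UMIs of Top2a and Mki67 together, called cycle UMIs here, and fewer than 30 UMIs of Acta1, the gene of skeletal muscle actin. The 166 members were drawn from 9595 E11.5 cells with at least 200 and fewer than 6500 genes and less than 15% mitochondrial UMIs, out of 19446 such cells at both stages. The study profiled somites of C57BL/6 wild-type embryos at E9.5 and E11.5 by droplet-based scRNA-seq. At each stage, 3 embryos were pooled into 1 library, which held 10121 barcodes and 149368952 UMIs at E9.5 and 10167 barcodes and 136655763 UMIs at E11.5. With 1 library per stage and cells not assigned to embryos here, no test between groups of cells was possible, and every interval below is a 95% interval that covers counting error only. The libraries shared 30 barcode sequences, of which none was a member.

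Myogenic regulatory factors drive somite cells into the muscle lineage in sequence. Pax3 and Pax7 mark progenitors, Myf5 and Myod1 mark commitment, and Myog marks the start of terminal differentiation. Differentiation is classically coupled to permanent exit from the cell cycle, with the cyclin-dependent kinase inhibitors p21 (Cdkn1a) and p57 (Cdkn1c) among the brakes, and is followed by fusion of myocytes through the membrane proteins Myomaker (Mymk) and Myomixer (Mymx). Single cells that hold both Myog and transcripts of mitosis would sit at the step where proliferation and differentiation meet.

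Members were compared with 3 classes of E11.5 cells. The first held 248 cells with at least 5 Myog UMIs and no cycle UMI. The second held 151 cells with at least 2 Myod1 UMIs and no Myog UMI. The third held the 88 of these 151 cells that had 3 or more cycle UMIs, so that it resembled the members in cycle UMIs and lacked Myog. Levels are UMIs of a gene per 1000000 UMIs of the class, called counts per 1000000 (CPM). Cells were chosen by these same counts, so all differences below are descriptions of the chosen cells.

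Myog UMIs per member ranged from 5 to 176 with a median of 24, against a median of 47 in Myog cells without cycle UMIs. Summed Top2a and Mki67 UMIs ranged from 3 to 67 with a median of 17. Top2a was found in 165 members and Mki67 in 155. At the edges of the rule, 15 members had exactly 5 Myog UMIs and 6 cells with otherwise matching counts had 4, while 9 members had exactly 3 cycle UMIs and 26 cells had 2. Acta1 was at 0 in 133 members, and 15 further cells that met the other conditions had 30 or more Acta1 UMIs. Of genes that the rule did not use, Myod1 was found in 162 members and the mitotic kinase gene Cdk1 in 160, and in 133 and 124 when each cell was thinned at random to 5000 UMIs. A droplet with a myocyte and a cycling cell would show the same genes. Numbers of cells with a UMI are as counted unless thinning is named, and depend on depth.

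**Figure D1:**
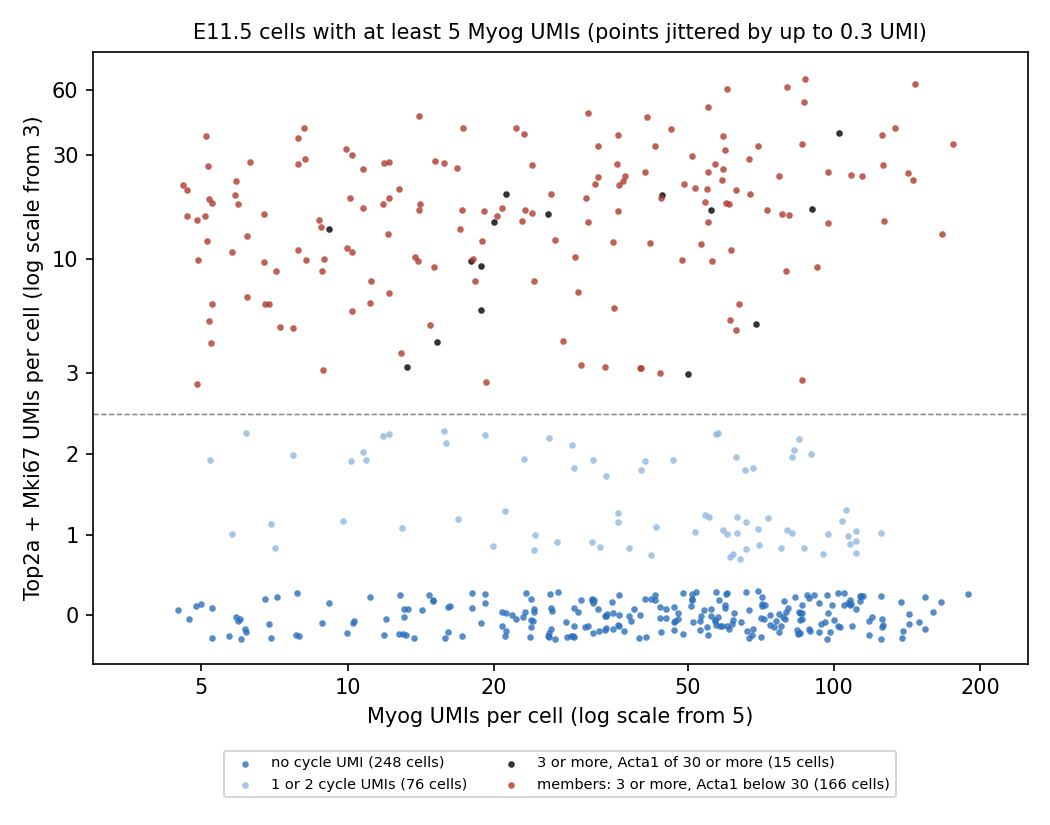
Myog UMIs (x axis, log scale from 5) against summed Top2a and Mki67 UMIs (y axis, log scale from 3) in each E11.5 cell with at least 5 Myog UMIs, with one point per cell and the dashed line at the limit for cycle UMIs. The 166 members (red) extend from 5 to 176 Myog UMIs, and 76 cells with 1 or 2 cycle UMIs lie between them and the 248 cells without any.

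Members made up 32.9% of the 505 E11.5 cells with at least 5 Myog UMIs (166 cells, Clopper-Pearson interval 28.8 to 37.2). Another 49.1% of the 505 had no cycle UMI and 15.0% had 1 or 2. When each cell was thinned at random to 5000 UMIs before the rule was applied, 68 cells met it, or 18.4% of the 369 cells that still had at least 5 Myog UMIs. The share of cells with cycle UMIs fell along the level of Myog. After each cell with a Myod1 or Myog UMI was thinned in this way, a Top2a or Mki67 UMI was found in 67.5% of the 228 cells with no Myog UMI (61.0 to 73.6) and in 64.7% of the 207 cells with 1 or 2. It was found in 39.0% of the 136 cells with 6 to 11 Myog UMIs (30.7 to 47.7) and in 16.7% of the 102 cells with 24 or more (10.0 to 25.3). Cycle UMIs were also less frequent in Myog cells with 30 or more Acta1 UMIs than in those without one. As counted, 3 or more cycle UMIs were found in 50.4% of the 264 Myog cells without an Acta1 UMI (44.2 to 56.6). They were found in 12.3% of the 122 Myog cells with 30 or more (7.05 to 19.5). Both genes and limits are part of the rule, and these shares were not thinned.

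**Figure D2:**
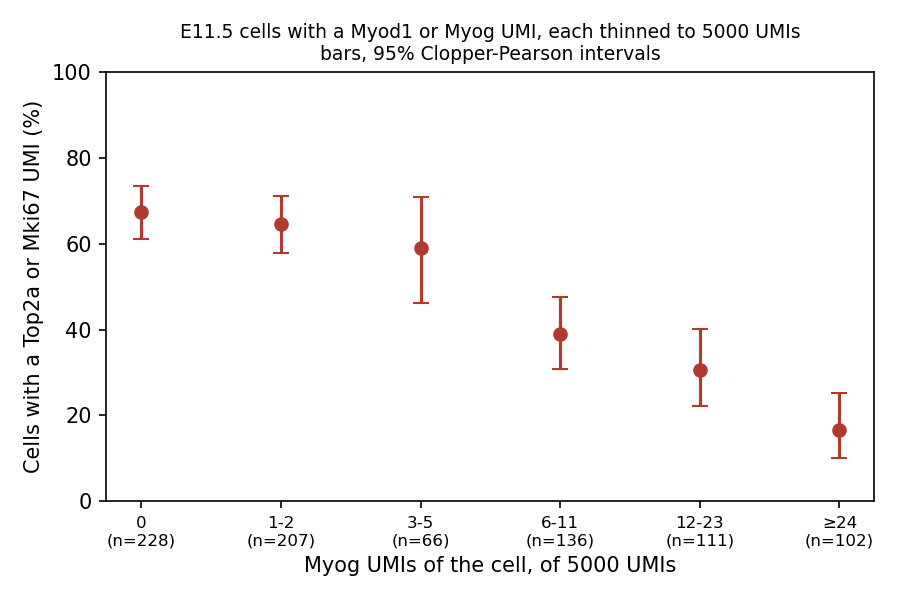
Percent of E11.5 cells with at least 1 Top2a or Mki67 UMI (y axis) by Myog UMIs (x axis) among cells with a Myod1 or Myog UMI, each thinned to 5000 UMIs. Points are shares and bars Clopper-Pearson intervals, and the share goes from 67.5% without Myog to 16.7% at 24 or more Myog UMIs.

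Members had more UMIs per cell than the classes they were set against. The rule itself favored this, since it set minimum UMIs for members and allowed no cycle UMI in the first class. Its part in the gap was not tested. The median was 24060.5 UMIs per member with a range of 8826 to 51872, against 15244.5 in Myog cells without cycle UMIs, 16216 in Myod1 cells without Myog and 20176.5 in the cycling cells among the latter. The ratio of medians was thus 1.58 against Myog cells without cycle UMIs and 1.19 against cycling Myod1 cells. Scrublet, which scores barcodes by their likeness to simulated doublets, called 30 members (18.1%), 2.42% of Myog cells without cycle UMIs, 11.4% of cycling Myod1 cells and 3.67% of all cells kept. Of the 15 cells that met the rule except for 30 or more Acta1 UMIs, it called 66.7%. At or below the median depth of Myog cells without cycle UMIs there were 19 members, and in these 19 the level of Cdk1 was 272 (210 to 346), that of Mymx 432 (354 to 523), that of Cdkn1a 412 (335 to 501) and that of Actc1, cardiac actin of early myocytes, 2363 (2174 to 2565) CPM. These levels are pooled over the 19 cells, of which Scrublet called 1. Its calls depend on the expected rate of doublets that was set. The part that doublets have in the members, these 19 included, was not tested.

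**Figure D3:**
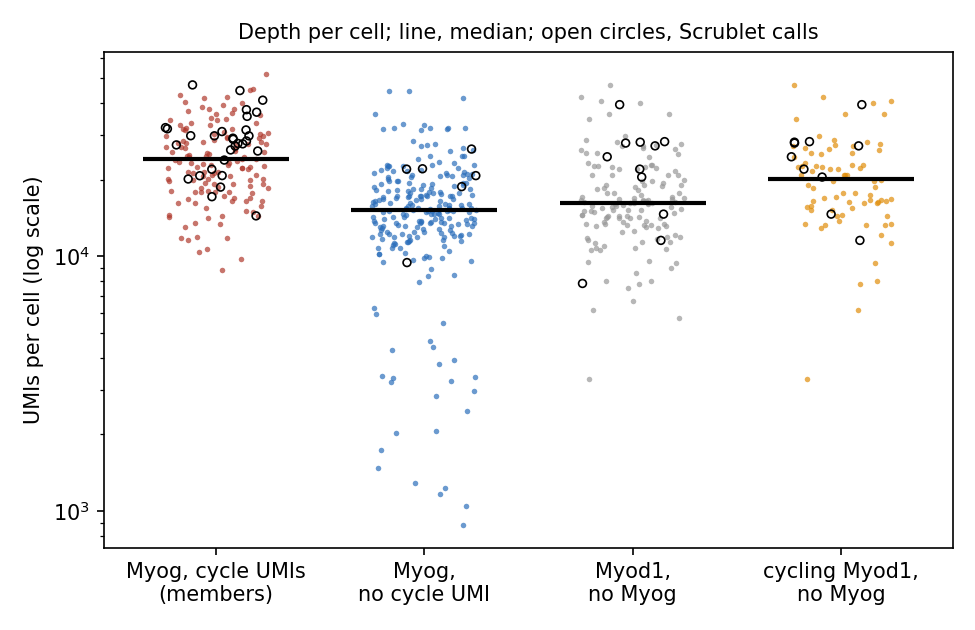
UMIs per cell (y axis, log scale) in the 166 members, the 248 Myog cells without cycle UMIs, the 151 Myod1 cells without Myog and the 88 cycling cells among these, which appear in both of the last columns. Lines are medians and open circles are cells called by Scrublet, 30 of them among the members, whose median of 24060.5 UMIs lies above those of the other classes.

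Transcripts of other cell types were sought with 8 marker lists. Globins reached 4245 CPM in the members, with UMIs of all 5 globin genes of the list, but nearly all of them lay in 3 cells that had 4759 to 6923 globin UMIs each and were all called by Scrublet. No other member had more than 6. Without those 3 cells the level of Hbb-y, an embryonic globin, was 29.9 (24.8 to 35.7) against 44.3 in Myog cells without cycle UMIs. The list of sclerotome and mesenchyme summed to 349 CPM (9 of 10 genes found, Nkx3-2 at 0, Twist1 highest at 127) against 77.9 in Myog cells without cycle UMIs, 521 in Myod1 cells without Myog and 1216 in all cells kept. At least 10 UMIs of this list were found in 30.7% of members, 2.02% of Myog cells without cycle UMIs and 44.3% of cycling Myod1 cells. The part of mesenchymal RNA in the results was not tested. The lists of neural tube (9.35 CPM, 4 of 6 genes found), neurons (34.8, 4 of 5), neural crest (18.7, 3 of 3), endothelium (23.5, 7 of 7), white blood cells (0.959, 2 of 4) and epithelium (2.64, 3 of 4) were all below their level in all cells kept. The lists of neural tube, neural crest and endothelium were higher in members than in Myog cells without cycle UMIs, at 3.31, 11.7 and 4.58, and than in Myod1 cells without Myog, at 6.66, 7.03 and 14.8, and the part of such RNA in the results was not tested. A level of at least 10 UMIs of the neural tube list was found in 2 members, of the neural crest list in 2 and of the endothelial list in 1. In members the most abundant gene was Fabp7 for neural tube, Tubb3 for neurons and Egfl7 for endothelium. It was Fcer1g for white blood cells and Krt8 for epithelium. In these lists Sox1, Olig2, Elavl3, Ptprc, Tyrobp and Cdh1 were at 0 in members, and the other genes were found. Sox1, Olig2 and Ptprc were also at 0 in all 3 comparison classes. The endothelial genes Cdh5, Pecam1, Tie1, Cldn5 and Emcn, found in members, were at 0 in Myod1 cells without Myog. Sox10 was found in members and was at 0 in Myog cells without cycle UMIs.

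Across all genes with at least 100 UMIs in the compared classes, the members differed far more from Myog cells without cycle UMIs than from Myod1 cells without Myog. Of 7171 genes, 760 (10.6%) were at least 2-fold higher and 640 (8.92%) at least 2-fold lower than in Myog cells without cycle UMIs. With every class limited to the median depth of Myog cells without cycle UMIs, 19 members were left and 106 genes were higher and 208 lower. Fewer genes reached the minimum of 100 UMIs in these fewer cells, so these 2 counts cannot be set beside those over 7171 genes. Against Myod1 cells without Myog, 193 of 6653 genes (2.9%) were 2-fold higher and 65 (0.977%) lower. Against cycling Myod1 cells without Myog, 188 of 6215 genes (3.02%) were 2-fold higher and 65 (1.05%) lower. A gene near 0 in one class was counted only where the other class held its UMIs, so that counts over a list below describe the genes counted and not the whole list. The median log2 ratio over all these genes was 0.13, -0.03 and -0.04 in the 3 comparisons. Since members but not Myog cells without cycle UMIs were limited in Acta1, the latter were also limited to their 156 cells with fewer than 30 Acta1 UMIs. Then 517 of 6315 genes (8.19%) were 2-fold higher and 322 (5.1%) lower.

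Genes of mitosis were higher in members as a class than in Myog cells without cycle UMIs, and single members differed widely. The list of G2 and M phase holds 36 genes of the mitotic kinases, the spindle, the kinetochore and the anaphase-promoting complex, and all 36 were 2-fold higher than in Myog cells without cycle UMIs, with a median log2 ratio of 4.90. None of the 36 was past 2-fold against Myod1 cells without Myog or the cycling cells among them. Summed over the list, members had 8935 CPM against 538 in Myog cells without cycle UMIs and 8218 in cycling Myod1 cells. Per cell the sum ranged from 1106 to 20760 CPM in members, with a median of 8740, and overlapped with that in Myog cells without cycle UMIs, which had a median of 371 and reached 11443. Cdk1, the kinase that drives entry into mitosis, ranged from 0 to 33 UMIs per member with a median of 9, and its level was 408 (389 to 428) against 12.5 (9.22 to 16.5) in Myog cells without cycle UMIs. No Myog cell without cycle UMIs had more than 3 Cdk1 UMIs. Ccnb1, the cyclin that activates Cdk1, was at 276 (261 to 293) against 4.83 (2.91 to 7.55). Ube2c, the ubiquitin-conjugating enzyme of the anaphase-promoting complex, had a median of 15 and up to 86 UMIs per member and a level of 864 (836 to 892) against 26.7 (21.9 to 32.3).

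Of 6115 genes counted in all comparisons, 64 were above every comparison class with intervals that did not meet. In 7 genes of the G2 and M phase list the level of the members was above every class in this way. These were Ccnb1, Cdk1, Ube2c, the centromeric histone Cenpa, the Cdk subunit Cks2, the spindle protein Hmmr and the condensin subunit Smc4. Against cycling Myod1 cells, which carried the same minimum of cycle UMIs, Ccnb1 and Ube2c each had a log2 ratio of 0.45 (0.28 to 0.63 and 0.36 to 0.55) and Cdk1 of 0.26 (0.13 to 0.39). In the 19 members at or below the median depth of Myog cells without cycle UMIs, Ccnb1 was at 214 (160 to 281) and Ube2c at 461 (380 to 555) CPM. Cycling Myod1 cells of all depths had 202 and 631. Outside the lists, Cdc25b, a phosphatase that activates Cdk1, was at 42.9 CPM in members, 17.8 in Myog cells without cycle UMIs and 19.5 in cycling Myod1 cells. Foxm1, a transcription factor of mitotic genes, was at 28.3, 0.763 and 16.2 in the same order. Cdc25b and Foxm1 were singled out after their values were seen.

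Among the genes outside the lists with the highest ratios over Myog cells without cycle UMIs were genes of chromosome segregation and division. They were Kif4, Kif2c, Casc5, Ckap2l, Cdc25c, Espl1 and Esco2, and each had at most 2 UMIs in the 248 cells without cycle UMIs. The globins Hbb-bh1 and Hba-x also had high ratios, at 242 and 951 CPM against 2.29 and 9.92, mostly through the 3 globin-rich members. Kif4, a chromosome-bound kinesin, had 189 UMIs in 97 members and 1 UMI in those 248 cells, a log2 ratio of 7.48 (4.98 to 12.79).

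Genes of late division are known to be repressed outside G2 and M phase through a short promoter element, the cell cycle genes homology region (CHR), often beside CCAAT boxes. Promoters from RefSeq (build GRCm38.p6, 250 bases before to 50 bases after the start site) were found for 30 of the 36 G2 and M phase genes, with 31 promoters. The letters TTTGAA of the CHR were present on either strand in 74.2% of these 31 promoters and in 17.9% of all 32851 promoters, and the letters CCAAT in 77.4% and 37.4%. Among the 30 sarcomere promoters of 25 genes, TTTGAA was in 3.33%. The promoters of Cdk1 and Ube2c, both among the genes above every comparison class, are shown with both motifs in capitals, and that of Myog, the gene that defines the members, with its E boxes (CANNTG, the letters bound by myogenic factors) in capitals. Where CCAAT or TTTGAA lies on the other strand it reads ATTGG or TTCAAA, and in Ube2c a CCAAT overlaps an ATTGG. The start site is base 251 of each.
Cdk1, chr10:69352863-69353162, minus strand: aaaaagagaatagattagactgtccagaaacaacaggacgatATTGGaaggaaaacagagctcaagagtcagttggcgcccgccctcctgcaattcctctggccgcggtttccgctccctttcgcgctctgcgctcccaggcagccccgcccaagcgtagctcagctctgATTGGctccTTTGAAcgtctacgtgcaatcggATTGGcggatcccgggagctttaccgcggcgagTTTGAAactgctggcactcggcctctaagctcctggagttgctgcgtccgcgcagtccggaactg
Ube2c, chr2:164769679-164769978, plus strand: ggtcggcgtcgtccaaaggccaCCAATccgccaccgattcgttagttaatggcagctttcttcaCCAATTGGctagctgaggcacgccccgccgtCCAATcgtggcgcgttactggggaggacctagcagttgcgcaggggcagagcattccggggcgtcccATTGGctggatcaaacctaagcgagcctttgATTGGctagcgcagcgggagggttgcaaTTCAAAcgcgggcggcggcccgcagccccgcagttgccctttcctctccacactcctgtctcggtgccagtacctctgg
Myog, chr1:134289754-134290053, plus strand: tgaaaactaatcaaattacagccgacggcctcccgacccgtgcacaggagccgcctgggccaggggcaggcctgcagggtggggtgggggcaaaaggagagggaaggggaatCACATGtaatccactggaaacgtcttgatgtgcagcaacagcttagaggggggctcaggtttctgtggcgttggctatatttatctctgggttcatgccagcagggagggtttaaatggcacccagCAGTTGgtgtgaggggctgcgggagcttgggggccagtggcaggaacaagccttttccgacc
In Cdk1, TTTGAA starts 71 and 15 bases before the start site, and in Ube2c its complement starts 29 bases before it. In Myog, E boxes start 138 and 12 bases before the start site. E boxes were in 86.7% of the sarcomere promoters, 80.0% of 15 promoters of acetylcholine receptor and calcium handling genes, 61.1% of 18 promoters of fusion genes and 72.3% of all promoters. These matches describe letters in the windows and not binding.

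Genes of DNA replication were also present, at a level slightly below that of cycling cells without Myog. Of 29 S phase genes counted, 27 were 2-fold higher than in Myog cells without cycle UMIs and none lower, and 22 of 29 were higher when those cells were limited in Acta1, where the list summed to 1165 CPM. Against Myod1 cells without Myog none of 30 was 2-fold higher and 1, Ung, which removes uracil from DNA, was lower, at 18.9 (15.0 to 23.6) against 57.4 (48.7 to 67.2). The list summed to 3242 CPM in members, 766 in Myog cells without cycle UMIs, 3832 in Myod1 cells without Myog and 4033 in the cycling cells among them. Mcm3, a subunit of the replicative helicase, was found in 135 members as counted and in 68 after thinning, with 0 to 13 UMIs and a median of 2 as counted, and its level was 103 (93.8 to 114) against 30.5 (25.3 to 36.5) and 130 in cycling Myod1 cells. Rrm2, a subunit of ribonucleotide reductase, was at 302 (285 to 319), 28.2 (23.2 to 34.0) and 338 (312 to 366). Replication-dependent histones summed to 657 CPM in members, 103 in Myog cells without cycle UMIs, 635 in Myod1 cells without Myog and 839 in the cycling cells among them. Of 11 histone genes counted, 9 were 2-fold higher than in Myog cells without cycle UMIs, such as the linker histone Hist1h1b at 166 against 5.09. Hist1h2bc alone was 2-fold lower, at 11.5 (8.48 to 15.3) against 32.6 (27.2 to 38.7), but not once those cells were limited in Acta1, where its log2 ratio was 0.13. UMIs of the G2 and M phase list made up 21.7% to 94.3% of each member's UMIs of both lists. The quartiles were 56.5% and 85.1% against 46.5% and 79.7% in cycling Myod1 cells. This share was below 25% in 2 members, 25% to 75% in 81 and 75% or more in 83. It does not assign a phase to a cell, as it ranged from 0% to 100% in Myog cells without cycle UMIs.

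**Figure D4:**
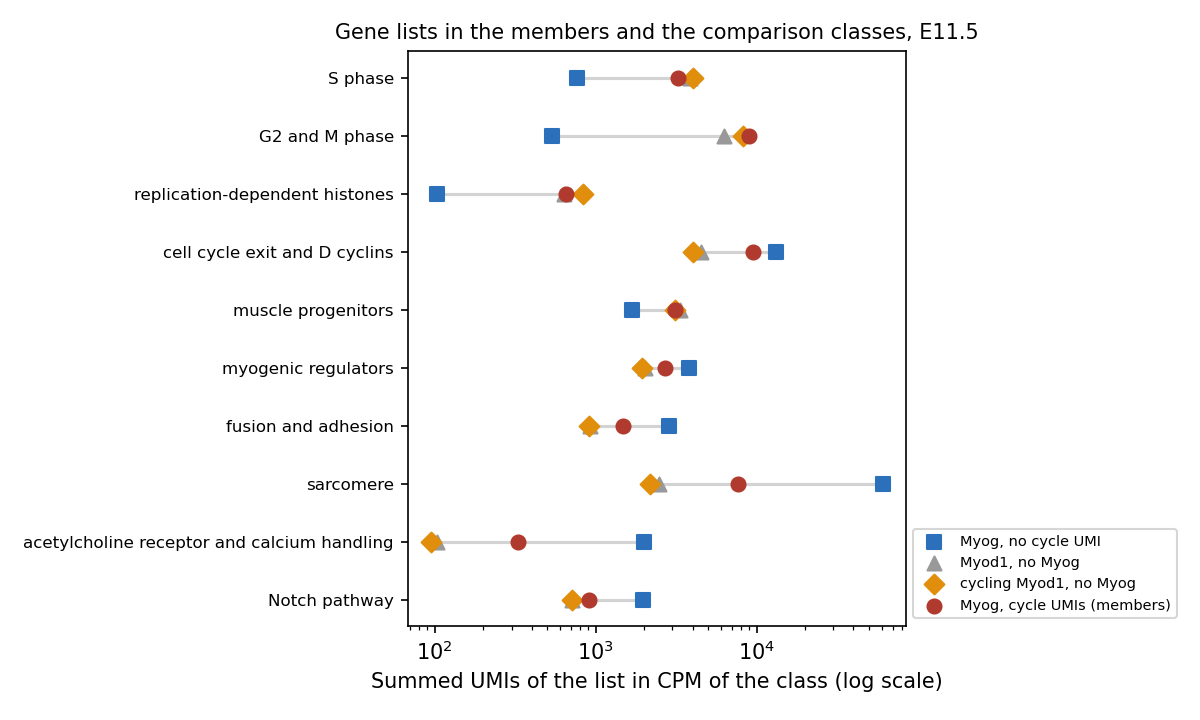
Summed UMIs of the 10 gene lists in CPM of the class (x axis, log scale) in the members (red circles) and the 3 comparison classes. For S phase, G2 and M phase and histone genes, members lie far above the Myog cells without cycle UMIs and near both classes of Myod1 cells, while for the lists of cell cycle exit, fusion, sarcomere and acetylcholine receptor genes they lie between these and the Myog cells without cycle UMIs.

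Inhibitors of the cell cycle were expressed in the same members. Of 14 genes of cell cycle exit and D cyclins counted against Myod1 cells without Myog, 6 were 2-fold higher and none lower. Against Myog cells without cycle UMIs, 1 of 15, Ccnd2, was 2-fold higher and 5 were lower, and with these cells limited in Acta1 none of 13 was higher and 3 were lower. Cdkn1c, the gene of p57, had 13 to 520 UMIs in every member with a median of 178, and its level was 7629 (7546 to 7713) against 10336 (10236 to 10437) in Myog cells without cycle UMIs and 2881 (2804 to 2959) in cycling Myod1 cells. Its detection does not set members apart, since after thinning it was also found in every one of the 226 Myog cells without cycle UMIs, in 81.2% of endothelial cells and in 71.9% of neural tube cells. Cdkn1a, the gene of p21, differed more among members. It had 0 to 87 UMIs with a median of 2 and was found in 101 members, with a level of 381 (362 to 400) against 1315 (1279 to 1351) and 5.41 (2.60 to 9.96). Rb1, the retinoblastoma gene whose product holds back S phase genes, was at 45.8 (39.5 to 52.8), 93.9 (84.6 to 104) and 5.96 (2.97 to 10.7) in the same order.

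Gadd45g, a gene of growth arrest, was the one gene of this list above every comparison class. It had 0 to 40 UMIs per member with a median of 5, and a level of 326 (308 to 343) against 278 (262 to 295) in Myog cells without cycle UMIs and 35.7 (27.6 to 45.5) in cycling Myod1 cells. Its place above Myog cells without cycle UMIs did not hold when these were limited in Acta1, where their level was 481. Of the D cyclins, which start the cycle in G1 phase, Ccnd2 was at 210 (196 to 224) in members, 83.0 (74.2 to 92.5) in Myog cells without cycle UMIs and 326 (301 to 354) in cycling Myod1 cells. Ccnd3, the D cyclin known from differentiating muscle, was at 360 (342 to 379), 397 (378 to 417) and 358 (331 to 386), with an overlap of the intervals of members and cycling Myod1 cells.

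The 16 progenitor genes summed to 3101 CPM in members, 1674 in Myog cells without cycle UMIs, 3346 in Myod1 cells without Myog and 3101 in the cycling cells among them, and Itm2a alone carried most of the sum in members. The median log2 ratio of the 10 genes counted was 1.48, -0.67 and -0.64 in the 3 comparisons. With Myog cells without cycle UMIs limited in Acta1, the median was 0.84 and the list summed to 2157 CPM in those cells. Of these 10 progenitor genes counted, 5 were 2-fold higher than in Myog cells without cycle UMIs, and 2, Pax3 and Msc, were 2-fold lower than in Myod1 cells without Myog. Pax3 was at 32.1 (26.9 to 38.0) in members against 8.14 (5.57 to 11.5) and 130 (116 to 144). Pax7 was at 33.1 (27.8 to 39.1) against 5.09 (3.11 to 7.86) and 49.6 (41.6 to 58.8). Tcf15, a factor of the early dermomyotome and somite, was at 91.6 (82.6 to 101) against 14.3 (10.8 to 18.5) and 154 (140 to 170). Itm2a, a membrane protein gene active in early muscle, was at 2609 in members and 2582 in Myod1 cells without Myog, with overlapping intervals.

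Myogenic regulators were split. Myod1 had 0 to 67 UMIs per member with a median of 13, the same median as in Myog cells without cycle UMIs, and its level was 630 (606 to 655) against 903 (874 to 933) there. In Myod1 cells without Myog, which were chosen for 2 or more Myod1 UMIs, the median was 3. Myf5 was at 60.7 (53.4 to 68.6) in members, 46.3 (39.8 to 53.6) in Myog cells without cycle UMIs and 149 (135 to 164) in Myod1 cells without Myog. Mef2c, a partner of the myogenic factors that activates contractile genes, was at 148 (137 to 160), 1249 (1215 to 1285) and 14.8 (10.6 to 20.2), and Mef2a at 151, 223 and 29.6. The inhibitors of differentiation Id2 and Id3, which bind the partners of Myod1, were at 189 (176 to 203) and 461 (441 to 482) in members and at 44.5 and 256 in Myog cells without cycle UMIs. Id3 lay above every comparison class, with 414 (390 to 439) in Myod1 cells without Myog.

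Both fusogens were found in members. Mymx had 0 to 47 UMIs with a median of 1.5 and was found in 98 members, with a level of 259 (244 to 275) against 635 (611 to 661) in Myog cells without cycle UMIs and 1.62 (0.335 to 4.75) in cycling Myod1 cells. The range of UMIs per cell reached 47 in members and in Myog cells without cycle UMIs alike. Mymk had 0 to 17 UMIs and was found in 83 members, with a level of 83.4 (74.9 to 92.7) against 461 (440 to 483) and 7.58 (4.14 to 12.7). The log2 ratio of members to Myog cells without cycle UMIs was -1.29 (-1.40 to -1.19) for Mymx and -2.47 (-2.64 to -2.30) for Mymk. Of 14 fusion and adhesion genes counted in that comparison, 2 were 2-fold higher, Cdh2 and Dock1, and 5 lower. With those cells limited in Acta1, Dock1 was no longer 2-fold higher. Of 13 counted against Myod1 cells without Myog, 5 were higher, among them Mymx, Mymk and the adhesion genes Cdh15 and Jam3, and 1 was lower.

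Mitotic and fusogen transcripts were found in the same barcodes at equal depth. With every cell thinned to 5000 UMIs, Mymx was found in 42.2% of members (70 of 166, 34.6 to 50.1) against 65.5% of 226 Myog cells without cycle UMIs and 1.15% of 87 cycling Myod1 cells. Among 69 endothelial cells and 320 neural tube cells, which should lack it, Mymx was found in 0, which allows shares of up to 4.35% and 0.938%, taken here as 3 counts of the total and not as a Clopper-Pearson limit. Before thinning, the median depth was 24060.5 UMIs in members, 18787 in those endothelial cells and 13787.5 in those neural tube cells, and as counted Mymx was found in 98 of the 166 members. Mymk was found in 26.5% of thinned members and in 0.312% of the neural tube cells. Cdk1 and Mymx were found together in 28.9% of thinned members (48 cells, 22.2 to 36.4), and Cdk1 and Mymk in 18.1% (30 cells, 12.5 to 24.8). Alone, Cdk1 was found in 124 thinned members, Mymx in 70 and Mymk in 44, and members were chosen for cycle UMIs. Joint detection thus does not by itself show a link between these genes, and the part of doublets in it was not tested. UMIs of both Pax7 and Mymk were found in 24 of the 166 members as counted and in 0 after thinning, with Pax7 in 24 and Mymk in 44 thinned members. By the same limit of 3 counts, this 0 allows 1.81% of cells with both UMIs at that depth and sets no limit on cells that express both.

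Transcripts of contractile genes were found in members at a fraction of their level in Myog cells without cycle UMIs. All 29 sarcomere genes counted were 2-fold lower than in those cells, with a median log2 ratio of -3.78, and 24 of 25 were still lower when those cells were limited in Acta1 (median -2.67). The list summed to 7640 CPM in members, 61217 in Myog cells without cycle UMIs, 30875 in those limited in Acta1, 2463 in Myod1 cells without Myog and 2189 in the cycling cells among them. Of its 30 genes, 12 had too few UMIs to be counted against Myod1 cells without Myog, and most of the other 18 reached the minimum through the members, so that the 16 found 2-fold higher describe those genes and not the list. Per cell, the sum ranged from 893 to 53755 in members, with a median of 5216, and overlapped with the range in both other classes. Actc1 had 0 to 322 UMIs with a median of 11 and was found in 140 members, at a level of 1535 (1498 to 1574) against 7906 (7818 to 7994) and 14.1 (9.19 to 20.6) in cycling Myod1 cells. Myh3, embryonic myosin heavy chain, was found in 45 members as counted and 27 after thinning, at 98.3 (89.0 to 108) against 1854 (1812 to 1897) and 1.08 (0.131 to 3.91). Ttn, the gene of the giant elastic protein titin, was found in 123 members, at 523 (502 to 546) against 3499 (3440 to 3558) and 31.9 (24.3 to 41.2). After thinning, Actc1, Myh3 and Ttn were found in 69.9%, 16.3% and 55.4% of members. In neural tube cells they were found in 1.25%, 0.312% and 0.312%. In endothelial cells Actc1 was found in 1.45%, and Myh3 and Ttn in 0.

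Some sarcomere genes, such as Myh7, Tcap and Csrp3, had few UMIs in members. Myh7, slow myosin heavy chain, had 3 UMIs in all members together against 216 CPM in Myog cells without cycle UMIs, and Tcap, a titin cap protein, had 4 against 271. Csrp3, a protein of the Z disc, had no UMI in the members, which allows 0.719 CPM, and was thus at least 72.5-fold lower than in Myog cells without cycle UMIs at 52.2. Against those limited in Acta1 the gap was smaller, as their levels were 26.8 for Myh7, 47.4 for Tcap and 30.6 for Csrp3. Among the lowest ratios outside the lists were those of Myl3, Cox8b, Mustn1, Tmem182, Itgb1bp2, Ache, Smim5 and Ramp1. Of these, Myl3, a myosin light chain of slow and cardiac muscle, and Cox8b, a respiratory chain subunit of striated muscle, each had 1 UMI in the members.

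The acetylcholine receptor, which receives the motor nerve, and the calcium stores of the fiber had the same order. All 15 genes of this list counted were 2-fold lower than in Myog cells without cycle UMIs, and 4 of the 19 were not counted. The list summed to 331 CPM in members, 1990 in Myog cells without cycle UMIs, 1245 in those limited in Acta1 and 103 in Myod1 cells without Myog, against which 13 of the 19 had too few UMIs to be counted. Chrna1, the receptor's alpha subunit, was found in 42 members as counted and 25 after thinning, at 36.0 (30.4 to 42.2) against 206 (192 to 221). It had no UMI in Myod1 cells without Myog, which allows 1.11 CPM, so that it was at least 32.4-fold higher in members. Atp2a1, the calcium pump of the fast fiber, was at 54.7 (47.8 to 62.2) against 294 (277 to 311) and 2.59 (1.04 to 5.34) in Myod1 cells without Myog. Trdn, triadin of the calcium release complex, had 4 UMIs in members and was at 97.7 CPM in Myog cells without cycle UMIs.

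Notch signaling keeps progenitors from differentiating. Of 11 genes of the pathway counted, 4 were 2-fold higher in members than in Myog cells without cycle UMIs and 2 lower, and with those cells limited in Acta1, 3 of 9 were higher and 1 lower. The target genes Hey1 and Hes1 were at 25.7 (21.0 to 31.0) and 84.1 (75.6 to 93.4) in members, 4.58 and 35.4 in Myog cells without cycle UMIs, and 57.4 and 114 in Myod1 cells without Myog. The receptor gene Notch3 was at 49.4 (42.9 to 56.6) in members, 17.3 in Myog cells without cycle UMIs and 55.2 in cycling Myod1 cells. The ligand gene Dll1 was at 42.4 (36.4 to 49.2) in members, 45.8 (39.4 to 53.0) in Myog cells without cycle UMIs and 13.7 (9.64 to 18.9) in Myod1 cells without Myog, and Hes6, which counteracts Hes1, at 288 (272 to 305), 790 (762 to 818) and 130 (117 to 144). Dlk1, a non-canonical ligand, was at 155 against 834 in Myog cells without cycle UMIs, but at 112 in those limited in Acta1.

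Outside the lists, genes far above Myod1 cells without Myog included 7 globin genes, Klhl41, Palmd and Btbd17. Of these globins, Hbb-bh1 was found in 8 members and Hbb-bs in 4. Klhl41, a sarcomere assembly protein, was at 42.4 CPM in members and 0.370 in Myod1 cells without Myog, and Palmd at 41.5 and 1.48. Genes far below included Lmo3, Ptx3, Sema3a, Plk2, Plppr1, Tnfaip6, Efemp1 and Ifi30. Sema3a, a guidance signal for axons, was at 14.6 (11.2 to 18.8) against 52.9 (44.6 to 62.4), and Plk2, a kinase of the polo family, at 27.6 (22.8 to 33.1) against 97.0 (85.6 to 109). Of 6115 genes counted in all comparisons, 64 were above every class and 24 below every class with intervals that did not meet. A total of 10 were above by 2-fold or more, namely 7 globin genes, Car2, Tcerg1l and Cdc25b, and none was below by 2-fold. Without the 3 globin-rich members, Car2, a carbonic anhydrase of red blood cells among others, was at 15.7 against 8.65 in Myog cells without cycle UMIs, less than 2-fold above, and the globin Hba-x was at 9.55 against 9.92, while Cdc25b was at 42.6 against 17.8 and Tcerg1l at 27.2 against 9.42.

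Members differed among themselves along their own Myog UMIs, which the rule limited only from below. In the 40 members with 5 to 9 Myog UMIs, the level of Cdkn1a was 38.6 (27.2 to 53.2), that of Mymx 19.8 (11.9 to 30.9) and that of Actc1 174 (149 to 203) CPM. In the 11 members with 100 or more, these levels were 1392 (1266 to 1528), 822 (725 to 927) and 5180 (4933 to 5436), and Mymk went from 6.26 (2.30 to 13.6) to 307 (249 to 374). Pax3 went the other way, from 55.3 (41.4 to 72.3) to 3.14 (0.0794 to 17.5), as did Ccnd2, from 274 (242 to 310) to 84.7 (55.8 to 123). Ccnd3 stayed between 298 and 393 over the 4 groups of Myog level, with the 49 members of 10 to 29 and the 66 members of 30 to 99 Myog UMIs in between.

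The balance of cycle genes moved as well. Summed S phase genes were at 4048, 3497, 2823 and 2010 CPM in members with 5 to 9, 10 to 29, 30 to 99 and 100 or more Myog UMIs, and summed G2 and M phase genes at 7440, 8467, 9550 and 12053. Mcm3 went from 155 (131 to 182) to 56.4 (33.4 to 89.2), and Ccnb1 from 211 (183 to 242) to 464 (392 to 545). Cdk1 was at 377 (339 to 417) in the first and at 455 (384 to 535) in the last group, whose intervals overlapped. The median depth of the groups also rose, from 21551 to 29279 UMIs per cell, and its part in these differences was not tested.

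**Figure D5:**
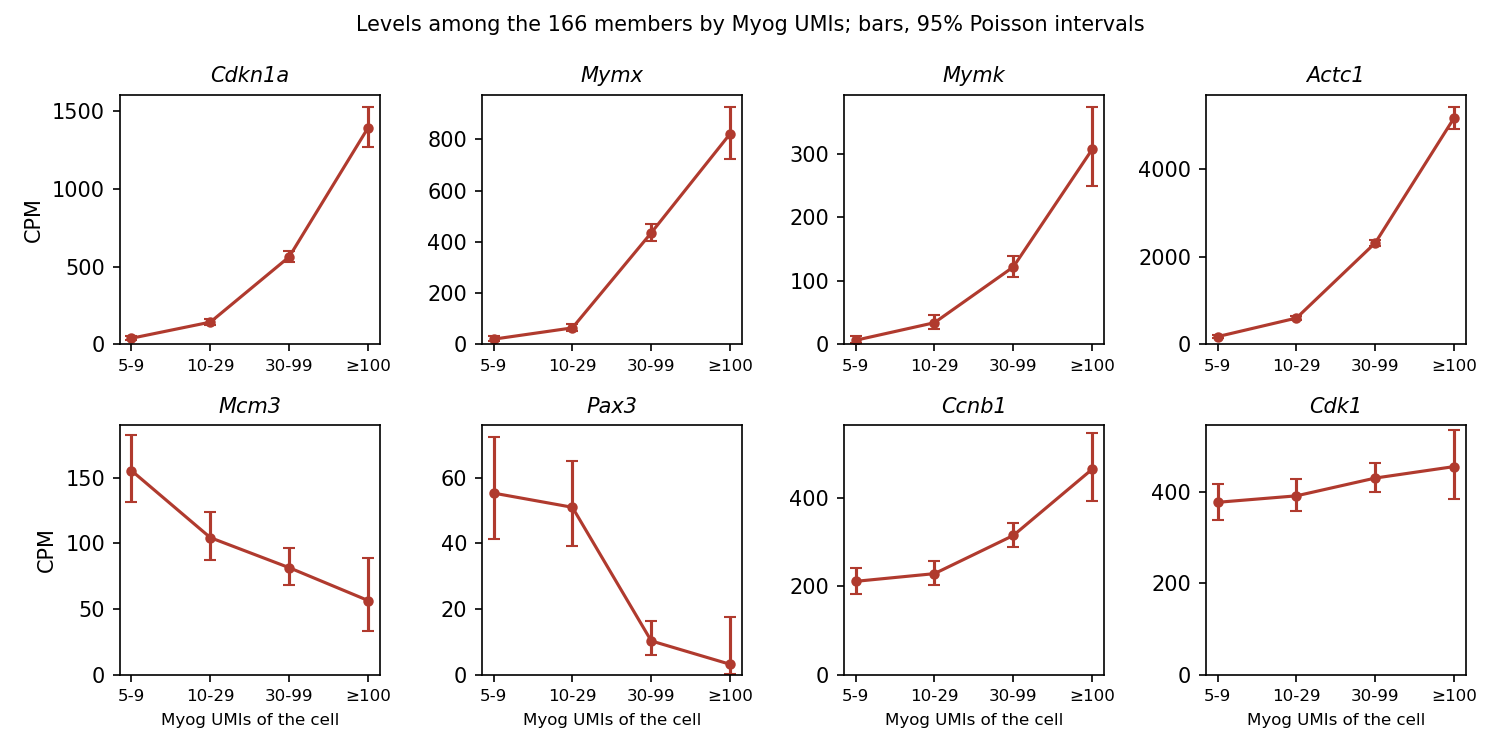
Levels of 8 genes in CPM (y axes, each from 0) among the 166 members, grouped by the Myog UMIs of the cell (x axes, with 40, 49, 66 and 11 cells). Bars are Poisson intervals, and the levels of Cdkn1a, Mymx, Mymk and Actc1 go up and those of Mcm3 and Pax3 go down from the lowest to the highest Myog group.

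Both sets of genes were also found in the members that Scrublet did not call. A member that was not called is not thereby shown to be a single cell. The part of doublets in the members not called was not tested. In these 136 members, Cdk1 was at 443 (421 to 466), Ccnb1 at 312 (293 to 332), Mymx at 251 (234 to 269), Mymk at 76.2 (67.1 to 86.2), Cdkn1a at 369 (349 to 390) and Actc1 at 1312 (1273 to 1352) CPM. The 30 called members had less Cdk1, at 272, and more Actc1, at 2392. Myl4, an embryonic myosin light chain, was at 58.3 in all members, 25.1 in those not called and 185 in those called.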

How the data were processed

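Cells of inter-limb somites were profiled on the 10x platform, with 3 embryos pooled per stage. The authors made the deposited counts, whole UMI counts per gene and barcode, with Cell Ranger 3.0.1 against mm10. A map from cells to embryos was not used here. From these counts, cells with at least 200 and fewer than 6500 genes and less than 15% mitochondrial UMIs were kept. UMIs were summed per class of cells and divided by the total of the class. Genes with at least 100 UMIs in both classes together were counted, and 2-fold was the limit for calling a difference. Intervals were exact (Poisson, conditional binomial for ratios, Clopper-Pearson for shares). The ratio code was checked on simulated counts of 7814 genes, of which 200 were changed 4-fold, and 100% of these were recovered. The simulation took its levels from barcodes grouped by Myog and cycle UMIs without the limits on genes, mitochondrial UMIs and Acta1. It held Poisson error only, with no variation between cells and no doublets, and so does not measure error in these data. Scrublet, as built into scanpy 1.11.5, called doublets with an expected rate of 8%. A lower expected rate gave a threshold that called no barcode, so all Scrublet calls here depend on this setting. Called cells were kept unless stated. Thinning drew 5000 UMIs per cell and left out shallower cells. Python 3.11.15, numpy 2.4.6, scipy 1.17.1, pandas 2.3.3 and matplotlib 3.10.9 were used.

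The members and gene lists were chosen with earlier results of these data known. Named genes were those of the rule. In each list they were also the 4 with the most UMIs in members and the 2 highest and 2 lowest past 2-fold. Outside the lists, 8 of the highest and 8 of the lowest were named in each comparison. List genes above or below every class were named as well. Genes outside this rule, such as Cdc25b, Foxm1, Myh3, Ttn, Tcap, Mcm3 and Rb1, were named after their values were seen. Alternatives changed the doublet calls, depth limits, the Acta1 limit, cell weights, scaling, minimum genes, minimum UMIs, the Myog and cycle limits, the gene cap, thinning and detection from 2 UMIs. Leaving out globin-rich cells and limiting every class to the median depth of Myog cells without cycle UMIs were chosen after seeing the data. Some genes that this rule names are not reported here.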

Additional observations from a re-analysis of the deposited data

Results flagged for a closer look

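The same rule found 14 cells in the E9.5 library, which entered no comparison, among 27 E9.5 cells with at least 5 Myog UMIs. These 14 cells were singled out because they lie outside the E11.5 comparisons. Their median depth was 29323.5 UMIs. Myf5 was found in 13 of them, Pax3 in 10, Cdk1 in 13 and Myod1 in 1, whereas Myod1 was found in 162 of the 166 E11.5 members. Mymx was found in 3 of the 14 cells and Mymk in 5. With 1 library per stage, stage and library cannot be told apart.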

How the results depend on the processing

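No paired analysis was possible because each stage had 1 library and no value came from a test. Genes past 2-fold were counted again under each alternative, and the count of those lower than in Myog cells without cycle UMIs was 322 with Acta1 below 30 in every class. With a minimum of 50 UMIs, 303 genes were higher and 140 lower than in Myod1 cells without Myog, and 302 and 130 than in the cycling cells among them. With a minimum of 200 UMIs the counts were 467 and 417 against Myog cells without cycle UMIs, 99 and 30 against Myod1 cells without Myog and 104 and 26 against the cycling ones; fewer or more genes were tested in these settings. With every class limited to the median depth of Myog cells without cycle UMIs, 19 members were left. The counts were then 106 and 208, 55 and 36, and 27 and 3 in the same order. They are over fewer genes and cannot be set beside the main counts. Thinning each cell to 5000 UMIs before applying the rule left 68 members, 18.4% of the 369 cells that kept at least 5 Myog UMIs. Directions turned mostly for globins. Without Scrublet calls, the log2 ratios over Myog cells without cycle UMIs were -0.87 for Hba-a1, -0.20 for Hba-x, -0.57 for Hbb-bt and -0.68 for Hbb-y, over Myod1 cells without Myog -0.071 for Hba-a1, -0.43 for Hba-a2, -0.71 for Hba-x, -0.21 for Hbb-bt and -0.32 for Hbb-y, and over cycling Myod1 cells -0.68 for Hba-a2, -0.70 for Hba-x, -0.24 for Hbb-bt and -0.061 for Hbb-y. Without globin-rich cells they were -0.86 for Hba-a1, -0.055 for Hba-x, -0.95 for Hbb-bt and -0.57 for Hbb-y in the first comparison, -0.60 for Hba-a2, -0.53 for Hba-x, -0.60 for Hbb-bt and -0.049 for Hbb-y in the second, and -0.78 for Hba-a2, -0.56 for Hba-x and -0.66 for Hbb-bt in the third. With Acta1 below 30 in every class, Dlk1 was at 0.47 and Hist1h2bc at 0.13 over Myog cells without cycle UMIs. With the limit on depth, Ccng1 was at 0.24, Efemp1 at -0.73, Hba-a1 at -0.73, Hbb-bt at -0.37 and Hbb-y at -1.06 in the first comparison, Hba-x at -0.18 and Hbb-y at -0.52 in the second, and Hba-a1 at -0.042, Hba-x at -0.63, Hbb-y at -0.94 and Msc at 0.69 in the third. For Dlk1, Hist1h2bc, Ccng1, Efemp1 and Msc the cause was not tested. Counts over all genes stayed within 1.5 times under the other settings, but counts within lists moved more. Of 60 such counts, 28 moved with the limit on depth, 12 with a minimum of 200 UMIs, 5 with one of 50, 6 with Acta1 below 30, 1 without globin-rich cells, 7 without Scrublet calls, 6 with Myog of 10 or more, 5 with members no deeper than 2 medians of Myog cells without cycle UMIs, 3 with 6 or more cycle UMIs and 2 with a mean over cells. Of the log2 ratios of named genes, 165 moved in size with the limit on depth, 60 with Acta1 below 30, 53 with Myog of 10 or more, 35 with the limit of 2 medians, 34 without Scrublet calls, 29 with a mean over cells, 18 with the median ratio set to 0, 6 with 6 or more cycle UMIs and 5 without globin-rich cells. Of 26 shares of members with a UMI of a gene, 25 moved beyond their interval with thinning and 23 with detection from 2 UMIs.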
